A study of Mus musculus with 41 samples.

Results

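H3K18la peaks of whole gastrocnemius muscle (GAS) were compared with those of macrophages taken from ischemic muscle (PIM). Both peak lists were merged on chromosomes 1 to 19, peaks that overlapped by at least 1 bp were joined, and each merged region was classed as GAS-only, PIM-only or shared. The 36322 GAS peaks and 31568 PIM peaks, out of 545737 peaks in the 24 lists of the series, gave 54537 regions. A region that came within 2000 bp of an annotated transcription start site was a promoter region, which held for 18837 of them, and the other 35700 regions were distal. The comparison was repeated with the 5000 peaks of largest total signal in each list.

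Chromatin was profiled by CUT&Tag, which cuts and tags DNA next to an antibody bound to the modified histone, so that sequenced fragments pile up at the mark. GAS was the gastrocnemius, a calf muscle, of female C57Bl6/J mice of 8 to 12 weeks, which was snap frozen and broken up into nuclei, so the nuclei of fibres, vessels, connective tissue and resident immune cells were profiled together. The same description, female C57Bl6/J mice of 8 to 12 weeks, covers the macrophage samples. PIM were sorted as CD45+CD11b+F4/80+CD64+ cells from enzymatically digested calf muscle of the ischemic limb, 2 days after ligation of the femoral artery. GAS and PIM each had 2 H3K18la samples, and both carry the treatment label control. No ischemia is described for the GAS samples, so cell type, injury, and digestion with sorting differ together and cannot be told apart. In whole tissue, fewer cells of a type and less of the mark per cell cannot be told apart either. The samples of a group were pooled before peaks were found, which leaves 1 list a group and no replicate error, so no test between GAS and PIM was possible. The 95% intervals given here are Wilson intervals for shares and Newcombe intervals for differences between shares, and they cover counting error over regions only.

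H3K18la is the lactylation of lysine 18 of histone H3, an acyl mark whose donor derives from lactate, the end product of glycolysis. Skeletal muscle is among the largest lactate producers of the body, and activated macrophages also turn to glycolysis. Macrophages enter injured muscle, clear debris and support the satellite cells that rebuild the fibres. Active promoters usually carry H3K4me3 and H3K27ac, active enhancers carry H3K27ac without much H3K4me3, and H3K27me3 marks genes silenced by Polycomb.

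Windows of 300 bp around the highest coverage of regions that belong to 1 list show what sequence lay under the comparison. They are read from the plus strand of the RefSeq GRCm38.p6 genome, the build that the peaks (mm10) use. Capitals mark matches to motifs of factors known in muscle or in macrophages, on either strand. The 3 GAS-only distal windows were at chr1:90497678-90497977, intergenic and 105153 bp from the nearest coding start site, that of Cops8, at chr8:120265596-120265895 in an intron of Gse1, and at chr9:122027406-122027705 in an exon of the predicted gene Gm39465, 30446 bp from Pomgnt2. The 3 PIM-only distal windows were at chr2:140790405-140790704 in an intron of Macrod2, and at chr16:3652045-3652344 and chr17:48193023-48193322 in intergenic sequence, 59797 bp from Olfr161 and 25956 bp from A530064D06Rik. The last 2 windows lay in promoter regions of listed genes, in an exon at Tnnt3 (fast troponin T of the fibre) at chr7:142506470-142506769 and in an intron of Laptm5 (a lysosomal protein of blood cells) at chr4:130914087-130914386.
GAS-only near Cops8: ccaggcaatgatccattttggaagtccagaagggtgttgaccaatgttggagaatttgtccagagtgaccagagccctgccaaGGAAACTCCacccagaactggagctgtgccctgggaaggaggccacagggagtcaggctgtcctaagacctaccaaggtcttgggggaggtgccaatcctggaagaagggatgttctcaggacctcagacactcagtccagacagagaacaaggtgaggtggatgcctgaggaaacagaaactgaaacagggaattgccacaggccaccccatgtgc
GAS-only in Gse1: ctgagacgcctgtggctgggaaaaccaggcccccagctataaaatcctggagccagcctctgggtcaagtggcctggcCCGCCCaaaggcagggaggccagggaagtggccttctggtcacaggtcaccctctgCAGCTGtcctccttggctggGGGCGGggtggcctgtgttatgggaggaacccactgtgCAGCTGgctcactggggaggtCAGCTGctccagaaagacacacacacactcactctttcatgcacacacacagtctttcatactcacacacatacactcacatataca
GAS-only near Pomgnt2: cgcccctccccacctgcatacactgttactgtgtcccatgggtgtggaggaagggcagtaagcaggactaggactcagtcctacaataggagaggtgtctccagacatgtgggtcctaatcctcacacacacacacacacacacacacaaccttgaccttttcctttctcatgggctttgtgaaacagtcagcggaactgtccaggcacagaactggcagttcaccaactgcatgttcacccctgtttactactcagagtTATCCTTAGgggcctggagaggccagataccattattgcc
PIM-only in Macrod2: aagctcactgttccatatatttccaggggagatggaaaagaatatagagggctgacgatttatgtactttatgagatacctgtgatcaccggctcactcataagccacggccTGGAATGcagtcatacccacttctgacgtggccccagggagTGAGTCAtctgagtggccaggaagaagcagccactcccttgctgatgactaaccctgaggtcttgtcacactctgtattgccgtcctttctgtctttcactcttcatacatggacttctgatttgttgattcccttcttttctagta
PIM-only near Olfr161: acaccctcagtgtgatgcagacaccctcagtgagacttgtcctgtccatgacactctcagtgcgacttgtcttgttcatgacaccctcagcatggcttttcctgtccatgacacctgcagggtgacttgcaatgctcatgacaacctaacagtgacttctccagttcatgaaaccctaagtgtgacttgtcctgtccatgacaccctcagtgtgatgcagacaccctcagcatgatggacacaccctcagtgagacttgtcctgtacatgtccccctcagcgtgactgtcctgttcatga
PIM-only near A530064D06Rik: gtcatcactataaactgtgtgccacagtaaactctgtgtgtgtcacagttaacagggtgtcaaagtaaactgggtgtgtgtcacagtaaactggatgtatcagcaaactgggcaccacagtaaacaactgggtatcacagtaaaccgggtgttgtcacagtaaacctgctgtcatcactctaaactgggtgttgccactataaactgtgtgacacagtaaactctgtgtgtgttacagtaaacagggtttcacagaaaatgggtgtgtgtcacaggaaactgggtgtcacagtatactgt
GAS-only at Tnnt3: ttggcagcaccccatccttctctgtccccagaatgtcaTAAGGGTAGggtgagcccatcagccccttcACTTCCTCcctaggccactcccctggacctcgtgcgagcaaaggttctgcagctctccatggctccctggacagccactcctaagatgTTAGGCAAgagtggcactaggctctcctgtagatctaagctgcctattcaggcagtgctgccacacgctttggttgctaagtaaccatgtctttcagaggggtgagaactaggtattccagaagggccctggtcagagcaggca
PIM-only at Laptm5: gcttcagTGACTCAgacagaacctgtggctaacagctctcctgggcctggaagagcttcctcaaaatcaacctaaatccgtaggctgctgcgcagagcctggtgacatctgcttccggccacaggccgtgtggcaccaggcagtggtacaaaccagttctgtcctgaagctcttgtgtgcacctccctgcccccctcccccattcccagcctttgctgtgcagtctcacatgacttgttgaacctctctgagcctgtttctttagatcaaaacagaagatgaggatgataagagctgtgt
The Gse1 window held 3 CAGCTG E-boxes and 2 GGGCGG boxes, and the Macrod2 window held an AP-1 match (TGANTCA) and a TEAD match (CATTCCA). The Cops8 window held an NF-kB match (GGANTTTCC) and the Pomgnt2 window a MEF2 match (CTANNNNTA). An AP-1 match also stood in the Laptm5 window, while the Tnnt3 window held a MEF2 match beside 1 PU.1 and 1 C/EBP match. The Olfr161 and A530064D06Rik windows held no searched motif, which says only that these letters were not in them. Some windows held repeated words, with cacacaca 10 times in the Pomgnt2 and 5 times in the Gse1 window, acaccctc 6 times in the Olfr161 window and acagtaaa 7 times in the A530064D06Rik window, overlapping occurrences included.

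The lists differed in how much of the genome they covered. GAS peaks covered 122 Mb with a median width of 2338 bp, and PIM peaks covered 68.0 Mb with a median width of 1619 bp. The median maximum of a peak was 54 fragments in GAS and 65 in PIM, in coverage that is not scaled for sequencing depth. Levels are therefore given as ppm, the signal of a region or of the promoter peaks of a gene per 1000000 of the in-peak signal that its list held on chromosomes 1 to 19.

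Of the 54537 regions, 25019 were GAS-only (45.9%), 18779 were PIM-only (34.4%) and 10739 were shared (19.7%, interval 19.36 to 20.03). Promoter regions were shared more often than distal ones. Among promoter regions 36.3% were GAS-only, 32.4% were PIM-only and 31.3% were shared (30.6 to 32.0), whereas among distal regions 50.9% were GAS-only, 35.5% were PIM-only and 13.6% were shared (13.2 to 13.9). The difference in shared regions was 17.7 percentage points (17.0 to 18.5). With 5000 peaks a list the shared part of 8861 regions was smaller, at 11.1% (10.4 to 11.7), and promoters (14.9%) stayed above distal regions (7.73%) by 7.18 points (5.86 to 8.52).

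**Figure D1:**
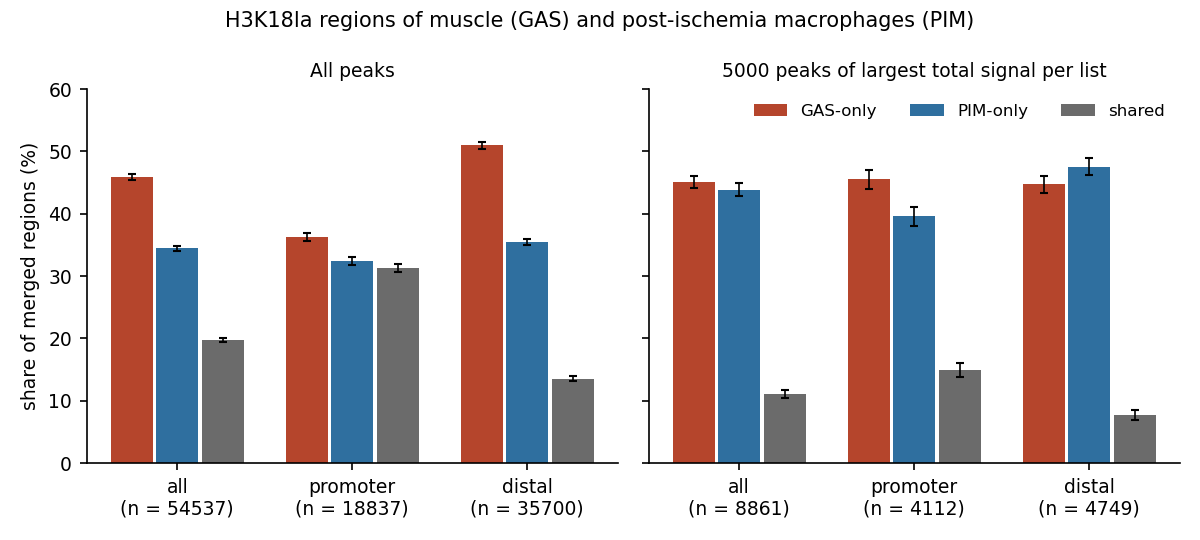
Share of promoter and distal regions, in percent, that were GAS-only, PIM-only or shared, for all peaks and for the 5000 peaks of largest total signal in each list, with 95% Wilson intervals. Shared regions made up 31.3% of promoter and 13.6% of distal regions over all peaks, and 14.9% and 7.73% with 5000 peaks.

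Counted as peaks, 31.1% of the GAS list overlapped a PIM peak and 40.5% of the PIM list overlapped a GAS peak. The bases common to both lists came to 24.9 Mb, which was 20.5% of the GAS and 36.7% of the PIM bases. Overlap increased with the signal of a peak when each peak was set against the whole of the other list. Part of this is built in, since total signal grows with width and a wider peak meets another more easily, with median widths of 7600 bp in GAS and 4252 bp in PIM among the 5000 strongest peaks. From the lowest to the highest decile of total signal, the overlapped share went from 32.7% to 57.8% of GAS promoter peaks and from 15.9% to 42.1% of GAS distal peaks. For PIM it went from 32.3% to 71.8% of promoter peaks and from 23.5% to 58.3% of distal peaks. The strongest PIM distal peaks were thus found in GAS more often than the weakest PIM promoter peaks. The 5000 strongest peaks of the lists overlapped each other less, 20.1% of those of GAS and 22.3% of those of PIM.

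**Figure D2:**
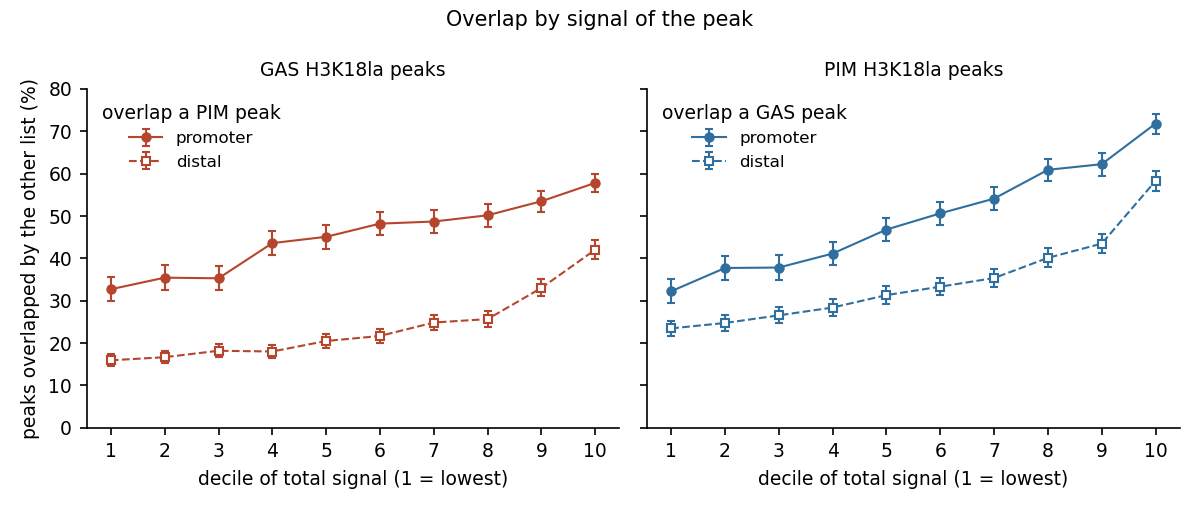
Percent of GAS peaks overlapped by a PIM peak and of PIM peaks overlapped by a GAS peak in each decile of total signal, promoter and distal peaks apart. In both lists and at both positions the share was higher in the highest than in the lowest decile, up to 71.8% for PIM promoter peaks.

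Median widths were 3584 bp in shared, 2234 bp in GAS-only and 1500 bp in PIM-only regions, where a shared region joins peaks of both lists and is wider by construction. Regions of 1 list were mostly not near misses. The median distance to the closest peak of the other list was 31634 bp for GAS-only distal and 16879 bp for PIM-only distal regions, and 3.39% and 6.35% of them had such a peak within 1000 bp. Within genes the distal classes differed, since 49.7% of GAS-only distal regions were intronic and 35.8% intergenic, against 41.2% and 47.2% of PIM-only distal regions. Shared distal regions lay between them for introns, at 42.9%.

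H3K27ac, which the classes did not use, was more frequent at regions of the list from its own source. H3K27ac peaks of GAS overlapped 57.7% of GAS-only distal regions (57.01 to 58.44) and 14.5% of PIM-only ones (13.9 to 15.1), a difference of 43.3 points (42.3 to 44.2). H3K27ac peaks of PIM, a group with 1 sample, overlapped 29.5% of PIM-only distal regions (28.7 to 30.3) and 1.22% of GAS-only ones (1.07 to 1.39), a difference of 28.3 points (27.5 to 29.1). Shared distal regions had H3K27ac of GAS in 65.9% and of PIM in 56.6% of cases, and of both in 39.2%. No H3K27ac peak of GAS or PIM overlapped 42.0% of GAS-only and 61.2% of PIM-only distal regions. Among distal regions of the 5000 strongest peaks, H3K27ac of the same source covered 94.7% of GAS-only and 90.6% of PIM-only regions. Over all distal regions of that run, H3K27ac of GAS covered 64.8% and of PIM 57.1%. H3K27ac of the other source was higher there too, with GAS at 31.5% of PIM-only and PIM at 15.0% of GAS-only regions. A region of 1 list in that run may hold a weaker peak of the other.

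At promoters, H3K4me3 and H3K27ac of the other source were less frequent where its H3K18la peak was missing than over all promoter regions. H3K4me3 of PIM overlapped 28.3% and H3K27ac of PIM 16.4% of GAS-only promoter regions, against 61.3% and 54.0% of all promoter regions. In the reverse direction, H3K4me3 of GAS overlapped 48.3% and H3K27ac of GAS 34.7% of PIM-only promoter regions, against 60.1% and 62.5% of all. H3K4me3 of GAS was present at 52.1% of GAS-only promoter regions, close to its share at PIM-only ones. Shared promoter regions carried H3K4me3 of GAS in 81.6% and of PIM in 88.7% of cases, and H3K27ac of both in 74.3%. The repressive mark differed between GAS-only and PIM-only regions in the opposite direction. H3K27me3 of PIM overlapped 25.5% of GAS-only and 8.23% of PIM-only promoter regions, a difference of 17.2 points (16.0 to 18.5) that was 2.05 points at distal regions (1.44 to 2.65). H3K27me3 of GAS overlapped 9.84% of PIM-only and 3.55% of GAS-only distal regions, a difference of 6.29 points (5.71 to 6.88) that was 4.71 points at promoter regions (3.70 to 5.72). Shared distal regions carried H3K27me3 as well, and their order against regions of 1 list depended on the peaks kept. Over all peaks H3K27me3 of GAS was at 4.71% of shared and 9.84% of PIM-only ones, and that of PIM at 8.47% of shared and 8.97% of GAS-only ones. With the 5000 strongest peaks H3K27me3 of GAS was at 14.7% of shared and 9.34% of PIM-only ones. That of PIM was at 16.3% of shared and 12.9% of GAS-only ones.

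H3K18la lists of other cells were set against the classes. Myotubes (MT), multinucleated cells formed in culture from myoblasts, had H3K18la peaks at 37.0% of GAS-only distal regions, where bone marrow derived macrophages (BMDM, 1 sample) had them at 1.75%, a difference of 35.2 points. Over all distal regions MT reached 35.8% and BMDM 21.7%, so the MT share at GAS-only regions was near the general one and the BMDM share below it. At PIM-only distal regions BMDM reached 37.6% and MT 23.9%, a difference of 13.7 points. At PIM-only promoter regions BMDM (32.0%) and MT (30.9%) were 1.13 points apart. White adipocytes (ADIPO), taken from AdipoCre-NuTRAP mice, had peaks at 32.9% of these promoter regions. Over all promoter regions the shares were 28.2% for BMDM, 48.2% for MT and 46.1% for ADIPO. At PIM-only promoter regions BMDM was thus above its general share, and MT and ADIPO were below theirs. The BMDM list was the smaller, with 19274 peaks against 33496 in MT. Myoblasts (MB, 1 sample) had H3K18la peaks at 10.4% of GAS-only and 11.7% of PIM-only distal regions. At promoter regions MB had them at 11.2% and 8.41%. In the run with 5000 peaks the MB shares were 25.8% and 33.1% at distal and 28.6% and 32.0% at promoter regions. Embryonic stem cells (ESC-2i) had peaks at 12.5% of either distal class. With 5000 GAS and PIM peaks, BMDM overlapped 83.7% of PIM-only promoter regions, MT 60.6% and ADIPO 46.5%, so BMDM exceeded MT by 23.0 points. Over all promoter regions of that run the shares were 56.3% for BMDM, 72.8% for MT and 58.2% for ADIPO. Shared promoter regions of the full lists were covered in MT (72.7%), ADIPO (71.1%) and BMDM (53.4%).

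**Figure D3:**
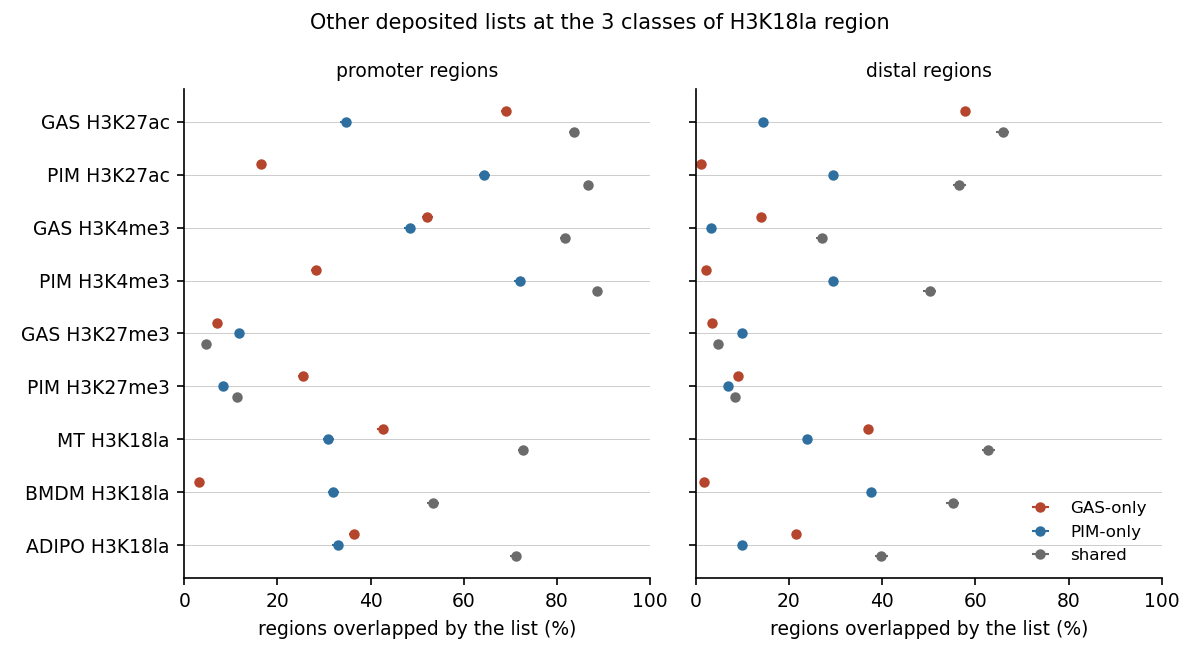
Percent of GAS-only, PIM-only and shared regions overlapped by peaks of other lists, promoter and distal regions apart, with 95% Wilson intervals. Distal GAS-only regions met GAS H3K27ac in 57.7%, PIM H3K27ac in 1.22%, MT H3K18la in 37.0% and BMDM H3K18la in 1.75% of cases, against 43.5%, 18.8%, 35.8% and 21.7% of all distal regions.

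Other pairs of H3K18la lists, each holding the GAS or the PIM list again, were merged the same way. GAS shared more of the merged regions with MT (28.7%) and ADIPO (23.5%) than with PIM (19.7%) or BMDM (13.4%). PIM shared 36.7% with BMDM, 20.8% with MT and 18.2% with ADIPO. GAS and PIM lists of the other marks shared 21.2% for H3K27ac, 39.3% for H3K4me3 and 19.5% for H3K27me3. The promoter share exceeded the distal share by 28.7 points for H3K27ac, 50.7 points for H3K4me3 and 24.1 points for H3K27me3, against 17.7 points for H3K18la.

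The 5 GAS-only promoter regions of largest signal included those of Hspg2 (553 ppm), which encodes the basement membrane proteoglycan perlecan, and Timp3 (462 ppm), an inhibitor of matrix metalloproteinases. Pitpnm2 (529 ppm) and Pde4d (475 ppm), a cAMP phosphodiesterase, were the others with a coding gene. The largest, with 565 ppm at chr12:73378174-73418853, covered only a non-coding start site. Among PIM-only promoter regions, Clec4d (652 ppm) encodes a lectin receptor of myeloid cells and Slc37a2 (520 ppm) a sugar phosphate transporter. Then followed 2 regions that covered only non-coding start sites. The nearest coding ones were of the leukocyte receptors Lilr4b (515 ppm, 18021 bp away) and Lilrb4a (509 ppm, 34296 bp away). The first was Pkd1l2 with 654 ppm.

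The strongest distal regions of 1 list were long. The 5 of GAS lay near or in Cops8 (346 ppm), Gse1 (323 ppm), Pomgnt2 (299 ppm), Vstm2l (277 ppm) and Cradd (276 ppm), and all 5 were overlapped by GAS H3K27ac, MT H3K18la and ADIPO H3K18la and none by PIM H3K27ac or BMDM H3K18la. The 5 of PIM lay nearest to Flrt3 (752 ppm), Olfr161 (729 ppm), A530064D06Rik (570 ppm), Tbc1d2b (491 ppm) and Nrp1 (456 ppm). All 5 were overlapped by PIM H3K27ac and BMDM H3K18la, and that near Tbc1d2b also by GAS H3K27ac. MT H3K18la overlapped 3 of them, those nearest to Flrt3, Tbc1d2b and Nrp1.

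Shared regions of largest signal were led by places of extreme coverage, such as Gm10800 with 13467 ppm in GAS and 12054 ppm in PIM. Peaks with a maximum over 2000 fragments numbered 23 in GAS (3.85% of its signal) and 27 in PIM (4.60%), and leaving them out, a choice made after seeing the data, moved no share beyond its interval. Among the remaining shared promoter regions the first were at Sfi1 (2118 ppm in GAS, 4528 ppm in PIM) and Zmiz1 (1228 and 1786 ppm). One of the next held 509 ppm in GAS and 1428 ppm in PIM and covered only a non-coding start site. Its closest coding start site, 62410 bp away, was that of Cebpb, a transcription factor of myeloid differentiation. Of shared distal regions, that near Zfp36l2, which encodes an mRNA decay factor, came first with 259 and 632 ppm.

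Within shared regions the signal was often unequal. The log2 ratio of the GAS to the PIM share of signal had a median of -0.19 and quartiles of -1.13 and 0.70 over shared promoter regions. It lay at least 1 above its median in 1322 and at least 1 below it in 1402 of the 5896 regions. In 56.6% of shared promoter regions the highest points of GAS and PIM were within 500 bp of each other, and in 50.9% of shared distal regions. At the GAS end stood Cuedc1 (614 ppm in GAS, 7.496 ppm in PIM, log2 ratio 6.36), Nfix (451 and 6.55 ppm, log2 ratio 6.10), a transcription factor of fetal myogenesis, and Ky (280 and 8.93 ppm), which is needed for muscle maintenance. At the PIM end stood Ptpre (17.3 ppm in GAS, 635 ppm in PIM, log2 ratio -5.20), a phosphatase, Slc29a3 (10.1 and 329 ppm), a lysosomal nucleoside transporter, and Sema4d (19.3 and 578 ppm), a semaphorin of immune cells.

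Promoters of protein-coding genes were then classed by whether H3K18la peaks of GAS, PIM or both reached within 2000 bp of a start site. Of 20807 genes, 12.3% were reached in GAS only, 14.1% in PIM only, 24.4% in both and 48.8% in neither. With 5000 peaks a list these were 5.97%, 5.48%, 2.48% and 85.8%. The remaining genes were reached in 1 list by a region shared further out. The lists of known genes below cover 6 groups for the muscle fibre, 7 for the macrophage, 4 for pathways of both and others for the remaining cells of the tissue.

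Fibre genes carried H3K18la in GAS and largely not in PIM. Of 96 fibre genes 59 were GAS-only, 2 PIM-only, 22 in both and 12 in neither, and with 5000 peaks 50 were GAS-only, 2 PIM-only and 7 in both. In the sarcomere, the contractile unit, 17 of 28 genes were GAS-only and 0 PIM-only. They included Tnnt3 (412 ppm), the Z-disc protein gene Ldb3 (172 ppm), the myosin light chain Myl1 (129 ppm), Myom2 of the M-band (125 ppm), fast troponin C Tnnc2 (105 ppm) and desmin, Des (105 ppm). Another 6 sarcomere genes were reached in both lists, with the larger share in GAS at Myom1 (308 ppm in GAS, 121 ppm in PIM), Tpm1 (273 and 22.7 ppm) and Tnni2 (137 and 87.6 ppm), near even shares at Myoz1 (50.7 and 47.1 ppm) and the larger share in PIM at Tnnc1 (10.9 and 17.1 ppm). The 4 sarcomere genes without an H3K18la peak in either list, named after their values were seen, were the myosin heavy chains Myh1, Myh2 and Myh7 and slow troponin T, Tnnt1.

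Excitation and calcium handling had 12 of 16 genes GAS-only and 0 PIM-only. Junctophilins Jph1 (193 ppm) and Jph2 (130 ppm), which hold the sarcoplasmic reticulum to the T-tubule, calsequestrin Casq1 (164 ppm), the calcium pump Atp2a1 (137 ppm) and the calcium channel subunits Cacng1 (96.0 ppm) and Cacna1s (85.7 ppm) led them. Energy metabolism had 10 of 15 genes GAS-only and the other 5 in both. Its GAS-only genes were led by muscle glycogen phosphorylase Pygm (201 ppm), phosphofructokinase Pfkm (200 ppm), AMP deaminase Ampd1 (156 ppm), myoglobin Mb (134 ppm) and creatine kinase Ckm (92.9 ppm). In the membrane and dystrophin complex 9 of 13 genes were GAS-only, among them the membrane repair gene Dysf (192 ppm), dystroglycan Dag1 (85.6 ppm) and the sarcoglycans Sgca (81.3 ppm) and Sgcd (45.4 ppm).

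Of 13 myogenic transcription factors 8 were GAS-only. The neighbours Myf5 and Myf6 held 158 ppm each from the same peaks, Tead4 78.3 ppm and Myog 64.6 ppm. The MEF2 genes were instead reached in both lists, Mef2d with 493 ppm in GAS and 135 ppm in PIM, Mef2c with 118 and 109 ppm and Mef2a with 47.1 and 51.2 ppm. The neuromuscular junction list was mixed, with 3 of 11 genes GAS-only, 2 PIM-only, 3 in both and 3 in neither. Acetylcholinesterase, Ache (12.2 ppm in PIM), and the adult acetylcholine receptor subunit Chrne (6.57 ppm in PIM) were the 2 fibre genes reached in PIM only. Neither was reached with 5000 peaks a list, where the 2 PIM-only fibre genes were Mef2c and Musk, the receptor kinase of the junction (23.9 ppm in GAS and 70.1 ppm in PIM over all peaks).

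Macrophage genes were PIM-only or in both lists. Of 90 macrophage genes 35 were PIM-only, 0 GAS-only, 48 in both and 6 in neither, against 14.1% PIM-only and 24.4% in both over all genes. The split between PIM-only and both depended on the larger GAS list, since with GAS reduced to the bases that PIM covered 59 macrophage genes were PIM-only, and 54 fibre genes GAS-only. All 4 genes of the proteins used for sorting were PIM-only, Ptprc (CD45, 108 ppm), Fcgr1 (CD64, 47.1 ppm), Itgam (CD11b, 42.5 ppm) and Adgre1 (F4/80, 36.2 ppm). Of 16 surface genes 11 were PIM-only, among them the chemokine receptor Ccr2 of recruited monocytes (164 ppm), the complement receptor C5ar1 (143 ppm), the lipid sensing receptor Trem2 (139 ppm), the endotoxin co-receptor Cd14 (135 ppm) and the mannose receptor Mrc1 (119 ppm). Csf1r, the receptor of the macrophage growth factor CSF1, was reached in both lists with 12.9 ppm in GAS and 289 ppm in PIM.

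Inflammation genes were PIM-only in 9 of 17 cases. The inflammasome gene Nlrp3 (262 ppm), the interleukin 1 receptor antagonist Il1rn (246 ppm) and the chemokine Cxcl2 (155 ppm) stood above Ccl3 (51.0 ppm) and Tnf (46.8 ppm). Socs3 and Tnfaip3 were reached in both lists, Socs3 mainly in GAS (289 ppm, against 16.9 ppm in PIM) and Tnfaip3 mainly in PIM (239 ppm, against 52.9 ppm in GAS). Repair and lipid handling had 4 of 17 genes PIM-only, among them Gpnmb (174 ppm), Il10 (163 ppm) and Spp1 (53.3 ppm), and 10 in both. Lgals3, which encodes galectin 3, had 910 ppm in PIM and 62.4 ppm in GAS, and the heme oxygenase gene Hmox1 had 309 and 76.4 ppm. Of 7 MHC class II genes 3 were PIM-only and 3 in both, with H2-DMa higher in GAS (99.1 ppm, against 51.2 ppm in PIM) and Cd74 higher in PIM (61.7 ppm, against 9.36 ppm).

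Myeloid transcription factors and lysosomal genes were mostly in both lists, 13 of 14 and 12 of 15. Zeb2 held 285 ppm in GAS and 823 ppm in PIM, Spi1, which encodes PU.1, 122 and 388 ppm, and Runx1 35.5 and 261 ppm. Cebpb was even, at 186 and 191 ppm, and Bhlhe40 (229 and 151 ppm) and the immediate early gene Nr4a1 (308 and 52.2 ppm) held more in GAS. Tfec (41.4 ppm) was the PIM-only gene of the 14. Among lysosomal genes Laptm5 (364 ppm), the integrin Itgb2 (106 ppm) and Ctss (40.3 ppm) were PIM-only, and Ctsb (98.7 and 485 ppm) and Ctsd (45.8 and 391 ppm), both cathepsins, had their larger share in PIM. With 5000 peaks a list, 39 macrophage genes were PIM-only, 12 in both and 4 GAS-only, the last being H2-DMa, Lamp1, Maf and Nr4a1.

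**Figure D4:**
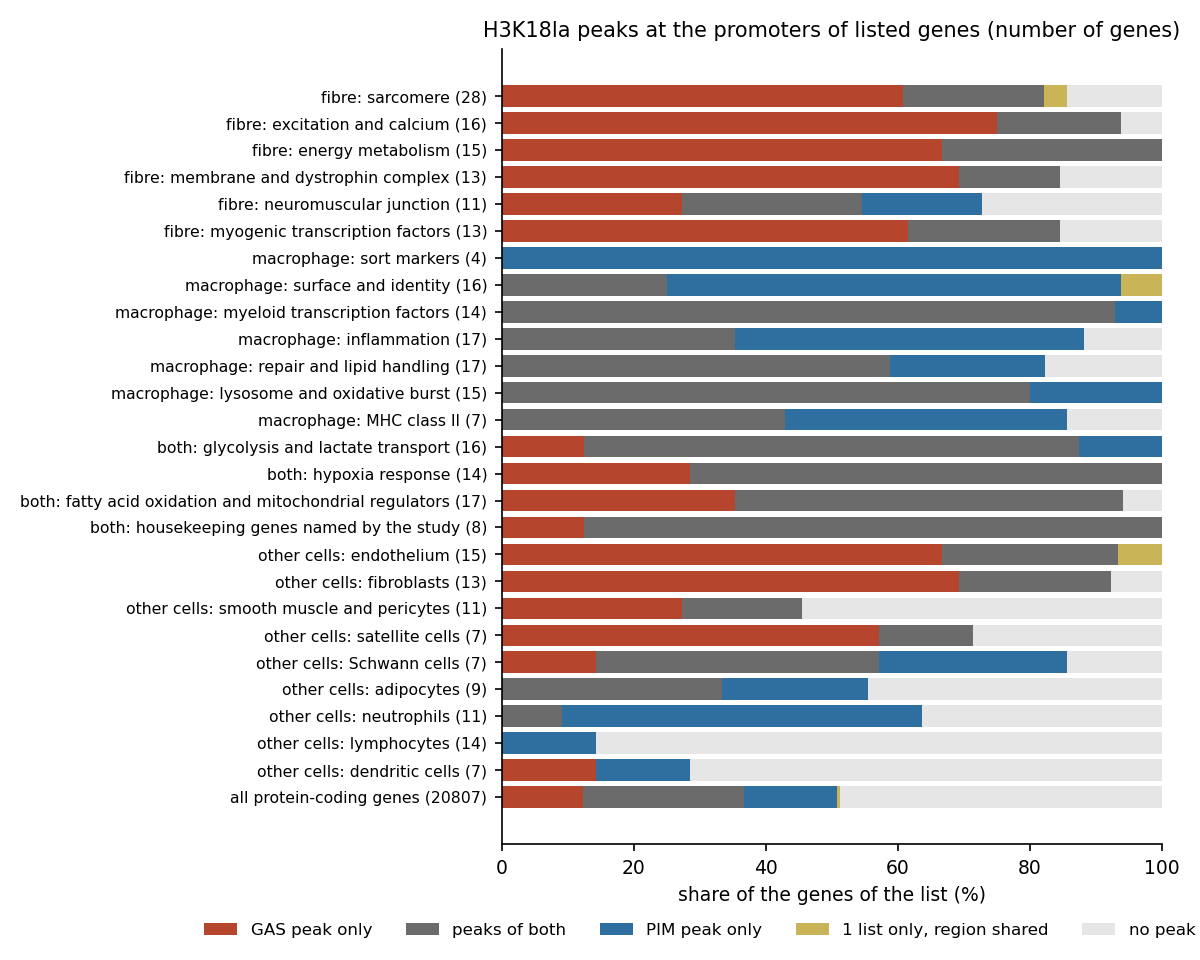
Number of genes of each list whose promoters were reached by H3K18la peaks of GAS only, PIM only, both or neither, as shares of the list in percent. Fibre lists were mostly GAS-only (59 of 96 genes) and macrophage lists were PIM-only (35 of 90) or in both (48 of 90).

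Where both lists reached a gene, the balance of signal went with the list for most fibre and macrophage genes. Over all 5075 such genes the log2 ratio of GAS to PIM had a median of -0.18. It was 1.17 for the 22 fibre genes, 19 of them above -0.18, and -0.98 for the 48 macrophage genes, 12 of them above -0.18. Lysosomal genes had the lowest median of the macrophage lists with 10 or more such genes, -2.33 with 1 of 12 above -0.18, while myeloid transcription factors had -0.88 with 5 of 13 above. Of the shorter lists, surface genes had -2.40 over 4 genes. Inflammation genes did not go with their list, at -0.13 with 3 of 6 above -0.18.

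The other marks at these promoters did not enter the classes. Of the 59 GAS-only fibre genes 58 had H3K27ac and 58 H3K4me3 in GAS, whereas in PIM 3 had H3K27ac, 13 H3K4me3 and 32 H3K27me3 (54.2%). Over all 2558 GAS-only genes the shares were 76.6% for H3K27ac and 89.8% for H3K4me3 in GAS, and 40.7%, 63.7% and 45.7% for the 3 marks in PIM, so H3K27me3 was near that of all such genes. H3K18la of MT reached 55 of the 59 and that of BMDM 1, against 51.7% and 5.24% of all GAS-only genes. Of the 35 PIM-only macrophage genes 31 had H3K27ac and 35 H3K4me3 in PIM, whereas in GAS 5 had H3K27ac, 11 H3K4me3 and 15 H3K27me3 (42.9%). Over all 2924 PIM-only genes the shares were 85.4% for H3K27ac and 92.5% for H3K4me3 in PIM, and 53.6%, 80.2% and 21.4% for the 3 marks in GAS. BMDM reached 30 of the 35 and MT 8, against 32.0% and 39.5% of all PIM-only genes. The 48 macrophage genes in both lists were reached by H3K18la of BMDM in 42 cases and of MT in 33, against 53.6% and 77.1% of all genes in both.

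Glycolysis and lactate transport genes were mostly in both lists, 12 of 16, with 2 GAS-only and 2 PIM-only. Hexokinase 2, Hk2, the main isoform of muscle, held 467 ppm in GAS and 33.3 ppm in PIM, and hexokinase 1, Hk1, 29.0 and 201 ppm. The lactate exporter Slc16a3 held 170 and 27.2 ppm and lactate dehydrogenase A, Ldha, 124 and 46.5 ppm, whereas the platelet type phosphofructokinase Pfkp held 22.5 and 178 ppm. Glucose phosphate isomerase, Gpi1 (211 ppm), was GAS-only, and the glucose transporter Slc2a1 (102 ppm) was PIM-only. Ldhb was near even, with 12.4 ppm in GAS and 13.1 ppm in PIM.

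Hypoxia response genes were in both lists in 10 of 14 cases (71.4%), and the other 4 were GAS-only (28.6%), against 24.4% and 12.3% of all genes. P4ha2, a collagen prolyl hydroxylase, was GAS-only with 207 ppm. Vegfa, the main angiogenic growth factor, held 196 ppm in GAS and 6.87 ppm in PIM, Ddit4 166 and 17.1 ppm and Bnip3 155 and 42.8 ppm, and Mxi1 went the other way with 53.7 and 181 ppm. Fatty acid oxidation and its regulators had 6 of 17 genes GAS-only (35.3%, against 12.3% of all genes) and 0 PIM-only. The GAS-only genes were led by Ucp3 (117 ppm), Ppargc1b (106 ppm) and Pdk4 (94.5 ppm). Ppargc1a held 118 ppm in GAS and 7.30 ppm in PIM. The fatty acid receptor Cd36 was reached in both with 189 and 425 ppm. Of 8 housekeeping genes 7 were in both lists (87.5%, against 24.4% of all genes), with a median log2 ratio of -0.19.

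Markers of endothelium, fibroblasts and satellite cells were more often GAS-only than PIM-only, where over all genes 12.3% were GAS-only and 14.1% PIM-only. Of 15 endothelial genes 10 were GAS-only, including Egfl7 (151 ppm), Eng (86.0 ppm) and Sox18 (82.8 ppm), and 4 were in both, among them Pecam1 (294 ppm in GAS, 39.3 ppm in PIM) and Cdh5 (68.3 and 96.0 ppm). Of 13 fibroblast genes 9 were GAS-only, including Cd34 (83.5 ppm), Dcn (37.7 ppm) and Col1a1 (31.7 ppm). Smooth muscle and pericyte genes were GAS-only in 3 of 11 cases and satellite cell genes in 4 of 7. Schwann cell genes were mixed, with 1 of 7 GAS-only, 2 PIM-only and 3 in both, and of 9 adipocyte genes 0 were GAS-only, 2 PIM-only and 3 in both. With 5000 peaks a list, GAS-only genes were 6 of 15 for endothelium, 1 of 13 for fibroblasts, 1 of 11 for smooth muscle and pericytes and 1 of 7 for satellite cells, against 5.97% of all genes, to which the fibroblast (7.69%) and smooth muscle (9.09%) shares were close, and the endothelial gene Cdh5 was PIM-only. Their part in the GAS-only class was not tested.

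Among markers of other blood cells, the neutrophil list had a larger PIM-only share than the 14.1% of all genes, and the lymphocyte and dendritic cell lists, at 14.3% each, were about equal to it. Of 11 neutrophil genes 6 were PIM-only, with Mmp8 at 39.7 ppm, Csf3r at 23.1 ppm and S100a8 at 12.6 ppm, and none of the 11 was reached with 5000 peaks a list. Of 14 lymphocyte genes 12 were in neither list and Ms4a1 (169 ppm) and Cd3d (23.1 ppm) were PIM-only. Of 7 dendritic cell genes 5 were in neither list, Zbtb46 was GAS-only (22.5 ppm) and Xcr1 PIM-only (23.6 ppm). PIM were sorted as CD45+CD11b+F4/80+CD64+ cells, and the part of these other cell types in the PIM-only class was not tested.

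Distal regions were assigned to the protein-coding gene with the nearest start site, and the single genes named for them were chosen after their values were seen. Near sarcomere genes 54 of 64 distal regions were GAS-only (84.4%), against 50.9% of all distal regions, and near macrophage surface genes 43 of 50 were PIM-only (86.0%), against 35.5%. The neuromuscular junction list went the other way from its group, with 5 of 20 distal regions GAS-only (25.0%) and 11 PIM-only (55.0%). Tpm1 had 15 GAS-only, 1 PIM-only and 1 shared distal region, Dysf 12, 1 and 0, and Jph1 12, 0 and 0. On the macrophage side Ptprc had 2 GAS-only and 10 PIM-only distal regions, Igf1, a growth factor for fibres, 3 and 19, and Thbs1, a matrix glycoprotein, 6 and 23.

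Around myeloid transcription factors 56 distal regions were GAS-only, 94 PIM-only and 50 shared, and the shared share of 25.0% was above the 13.6% of all distal regions. Runx1 had 12 GAS-only, 25 PIM-only and 8 shared, Maf 18, 20 and 11, and Zeb2 18, 21 and 7. Mef2c, from the fibre side, had 16, 16 and 9. Asph, a gene of the fibre calcium list, had 1 GAS-only, 10 PIM-only and 2 shared, the reverse of its list, in which 30 of 43 were GAS-only.

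Motifs were searched in the 300 bp windows around the highest coverage of every region, whose letters did not enter the classes. Both strands were searched, and a match is a description of the sequence and not a bound site. AP-1 (TGANTCA), the motif of FOS and JUN dimers, matched 12.5% of GAS-only and 33.1% of PIM-only distal windows, a GAS minus PIM difference of -20.6 points (-21.5 to -19.6). PU.1 (GAGGAAGT), the motif of the myeloid lineage factor, matched 2.35% and 9.46%, a difference of -7.10 points (-7.66 to -6.55). The MyoD type E-box (CAGCTG) went the other way with 25.4% and 17.8%, a difference of 7.60 points (6.68 to 8.52). Over all distal windows AP-1 matched 22.5%, PU.1 5.48% and the E-box 22.6%.

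Smaller differences were found for C/EBP (TTGCNNAA), with 12.1% of GAS-only and 15.3% of PIM-only distal windows, and RUNX (TGTGGTT), with 6.75% and 10.1%. On the GAS side stood TEAD (CATTCCA) with 6.46% and 4.55%, and MEF2 (CTANNNNTA) with 29.1% and 27.4%, where 27.9% of all distal windows matched. NF-kB (GGANTTTCC) matched 1.39% and 1.54%, and the interval of that difference spans 0. Its difference excluded 0 in windows of low GC, at -0.63 points (-1.10 to -0.17), and in promoter windows with 5000 peaks, at -1.64 points (-2.71 to -0.65). With 5000 peaks a list the AP-1 shares were 14.0% and 50.6%, and the MEF2 difference was 5.61 points instead of 1.66 (0.64 to 2.68). In windows of 500 bp the MEF2 difference was 0.51 points and its interval spans 0 (-0.62 to 1.63). Within 3 classes of GC content, made after seeing the data, the AP-1 difference was -22.6, -19.9 and -16.9 points from low to high GC and the MEF2 difference 6.08, 4.25 and 2.13 points. Promoter windows had the same order, with AP-1 at 9.97% and 23.9%, PU.1 at 1.87% and 8.005%, and the E-box at 25.0% and 15.6% of GAS-only and PIM-only windows.

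**Figure D5:**
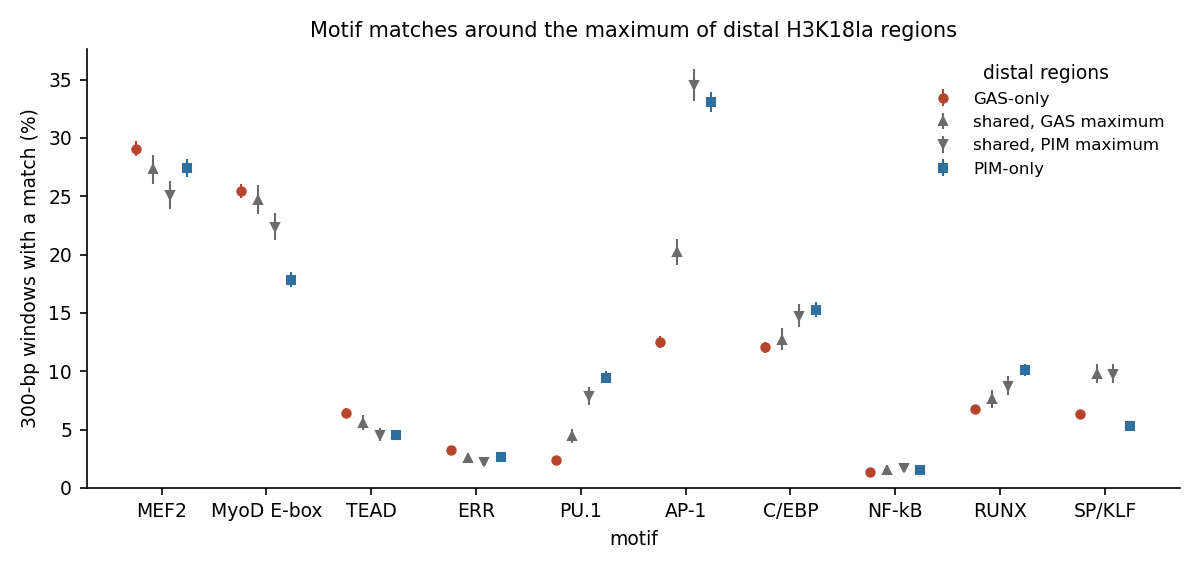
Percent of 300 bp windows at the highest coverage of GAS-only, PIM-only and shared distal regions that held each motif, with 95% Wilson intervals. AP-1 (12.5% and 33.1%) and PU.1 (2.35% and 9.46%) were more frequent in PIM-only than in GAS-only windows, and the E-box (25.4% and 17.8%) less.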

How the data were processed

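CUT&Tag for H3K18la, with H3K27ac, H3K4me3 and H3K27me3 for comparison, was deposited as 1 peak list a group. The authors trimmed reads (Trim Galore 0.6.6), aligned them to mm10 (Bowtie2 2.4.4, SAMtools 1.13), joined the coverage of replicates (bedtools 2.30) and kept the top 1% of peaks by total signal (SEACR 1.3, stringent, no control track). The deposited columns hold each peak's position, its total signal, its maximum signal and the interval of that maximum, in coverage not scaled for depth. Sequencing depth per sample was not analysed here, and pooling before peak finding left no replicate error.

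Peaks on chromosomes 1 to 19 were merged, classed and annotated with GENCODE vM21 (55450 genes). Of 339 list entries 332 had a protein-coding gene on these chromosomes. Up to 6 genes per list and class and 5 regions per class and position, those of largest signal, are named, with the list genes reached only in the list opposite to their own, and a few genes are not reported here. Members and lists were chosen with earlier results of these data known. Merging and counting were tested on simulated peaks. Python 3.11.15, numpy 2.4.6, pandas 2.3.3, scipy 1.17.1 and matplotlib 3.10.9 were used. Alternatives were 5000 peaks a list, equal covered bases, peaks above the median maximum, a stricter overlap, other promoter definitions and chromosome X added.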

Additional observations from a re-analysis of the deposited data

Results flagged for a closer look

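Peaks on the Y chromosome and on mitochondrial DNA entered no comparison. The GAS H3K18la list held 9 peaks and the PIM list 20 peaks on the Y chromosome, although the mice are described as female. Other H3K18la lists held 20 (ESC-2i, embryonic stem cells), 14 (BMDM), 14 (ADIPO), 2 (MT) and 0 (MB, myoblasts). Mitochondrial DNA, which carries no histones, held 2.19% of the GAS and 3.98% of the PIM H3K18la signal in 1 peak each, against 9.50% in BMDM, 8.26% in MT, 0.304% in ADIPO, 0.285% in MB and 0.159% in ESC-2i. These results are listed because they stand in data that no comparison used, and their cause was not tested.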

How the results depend on the processing

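No paired analysis was possible because replicates were pooled before peak calling, and for the same reason no replicate could be left out. Of the 8 results on shares of regions and gene counts that were run under each alternative, none changed direction. Other comparisons did change order with 5000 peaks a list. Distal regions were GAS-only in 50.9% and PIM-only in 35.5% of cases over all peaks, but in 44.7% and 47.6% with 5000 peaks. H3K27me3 at shared distal regions, set against regions of 1 list, also changed order. The NF-kB motif difference, whose interval spans 0, went from -0.15 points to 0.005 with 5000 peaks, and the GGGCGG difference from 1.04 points to -0.03, -1.18 and 0.83 within the GC classes. Motif windows of 500 bp gave a MEF2 difference of 0.51 points (-0.62 to 1.63). Among alternative motif values 13 moved beyond the interval and 7 did not. With 5000 peaks a list, the shared share was 11.1% (19.7% over all peaks), promoter minus distal 7.18 points (17.7), MT minus BMDM at GAS-only distal regions 55.2 (35.2), BMDM minus MT at PIM-only distal regions 33.5 (13.7), the GAS H3K27ac difference 63.2 (43.3) and that of PIM H3K27ac 75.6 (28.3). With GAS reduced to the bases of PIM (10601 peaks), the same were 12.2, 9.36, 53.5, 10.6, 64.6 and 32.4, and 59 macrophage genes were PIM-only (35). With peaks at or above the median maximum they were 16.1, 15.9, 41.9, 26.97, 52.0 and 54.2. An overlap of at least 50% of the shorter peak gave a shared share of 18.8% and a GAS H3K27ac difference of 41.8. Promoters of 1000 bp on each side gave a promoter minus distal difference of 20.7, and start sites of protein-coding transcripts alone gave 22.2 there and 29.4 for PIM H3K27ac. In total 24 alternative values of these 8 results moved and 40 did not, and GAS-only fibre genes numbered 50 to 64. The shared share moved most under the 3 alternatives that kept fewer peaks. Weak peaks and depth limit what a missing peak means, as a gene without a peak may hold signal below the 1% kept.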

Other observations

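Shared distal regions had 2 highest points, 1 for each list, and the sequence under them differed within the same regions. At the 4843 shared distal regions AP-1 matched 20.2% of windows at the GAS and 34.5% at the PIM maximum, PU.1 4.42% and 7.87%, and the E-box 24.7% and 22.4%. GGGCGG boxes matched 9.77% at both.

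GAS-only endothelial genes differed from GAS-only fibre genes in their other marks. All 10 had H3K4me3 in GAS, but 3 of 10 had H3K27ac there, 1 had H3K18la in MT and 0 had it in BMDM. Over all GAS-only genes 76.6% had H3K27ac in GAS and 51.7% had H3K18la in MT. Of the 59 fibre genes 58 had H3K27ac in GAS and 55 had H3K18la in MT. The 6 PIM-only neutrophil genes, Mmp8, Csf3r, Cxcr2, S100a8, Mpo and Ly6g, all had H3K27me3 in GAS, against 21.4% of all PIM-only genes, and 4 had H3K4me3 in PIM, against 92.5%.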
